A study of Monodelphis domestica with 5 samples.

Results

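Peaks of 4 histone modifications were examined in the first 10 Mb and the last 10 Mb of the 8 autosomes of the gray short-tailed opossum, *Monodelphis domestica*. A peak was counted at an end if its midpoint lay in that interval of chromosomes 1 to 8 of the MonDom5 assembly and its score was at least 50. The 16 ends held 8829 of the 226174 peaks with that score (3.90%), made up of 3093 H3K4me3, 1987 H3K9Ac, 3514 H3K9me3 and 235 H3K27me3 peaks. The ends made up 160 Mb, which is 4.67% of the autosomal length, and held 4.15% of the autosomal peaks. Because the length of a chromosome was taken as the largest peak end in any list, unmarked sequence beyond the last peak is not counted. The rest of the same 8 chromosomes, called the interior below, held 203800 peaks.

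The peaks came from native ChIP-seq of primary ear fibroblasts, which are connective tissue cells grown from skin, of 1 adult male born to an LL1 mother and an LL2 father (2 laboratory stocks). In native ChIP-seq, chromatin is cut with micrococcal nuclease without cross-linking and precipitated with an antibody. There was 1 library for each of the 4 antibodies and 1 of input chromatin, all from cells at passages 4 to 6 and with no treatment. The protocol mentions pooling of chromatin for sisters alone. No value below therefore has a replicate error, no tests were made, and the 95% intervals given are exact intervals that cover counting error only and treat peaks as independent.

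H3K4me3 and H3K9Ac are marks of activation (MOAs) that lie over promoters and other active elements, and H3K9Ac also over enhancers. H3K9me3 and H3K27me3 are marks of repression (MORs). H3K9me3 is the mark of constitutive heterochromatin and of silenced repeats, and in other mammals it also covers clusters of zinc finger genes, while H3K27me3 is laid down by Polycomb complexes over silent genes. The DNA next to mammalian telomeres is often rich in genes and in recently duplicated sequence. Genes, repeats, assembly gaps and centromeres of MonDom5 were not analysed here, so which ends lie next to a centromere was not established.

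The MOAs were somewhat sparser at the ends than in the interior. H3K4me3 peaks numbered 19.3 per Mb at the ends and 22.1 per Mb in the interior, a ratio of 0.876 (interval 0.845 to 0.908). H3K9Ac peaks numbered 12.4 per Mb at the ends and 15.1 per Mb in the interior, a ratio of 0.824 (0.787 to 0.862). H3K9me3 peaks numbered 22.0 per Mb at the ends and 24.0 per Mb in the interior, a ratio of 0.915 (0.884 to 0.946). With a score of at least 100, however, H3K9me3 turned to a ratio of 1.22, and without the last ends of chromosomes 1 and 3, described below, that ratio was 1.02 (0.959 to 1.09). H3K27me3 peaks numbered 1.47 per Mb at the ends and 1.30 per Mb in the interior, and the interval of their ratio of 1.13 included 1 (0.985 to 1.29).

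These pooled ratios covered ends that differed widely from each other. For H3K4me3 the 16 ends ran from 6.8 peaks per Mb, in the first 10 Mb of chromosome 7, through a median of 19.5 to 32.6, in the last 10 Mb of chromosome 4. H3K9Ac had its lowest and highest values at the same ends, 3.7 and 23.3 peaks per Mb, with a median of 12.7. H3K9me3 ran from 9.2, in the first 10 Mb of chromosome 1, through a median of 21.15 to 45.6, in the first 10 Mb of chromosome 3. H3K27me3 ran from 0.1 in the last 10 Mb of chromosome 6, where there was 1 peak, through a median of 1.2 to 3.4 in the last 10 Mb of chromosome 2. The active and the H3K9me3 orders were thus not the same, and the end richest in MOAs, the last of chromosome 4, had 12.7 H3K9me3 peaks per Mb against 22.5 in the interior of that chromosome.

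**Figure D1:**
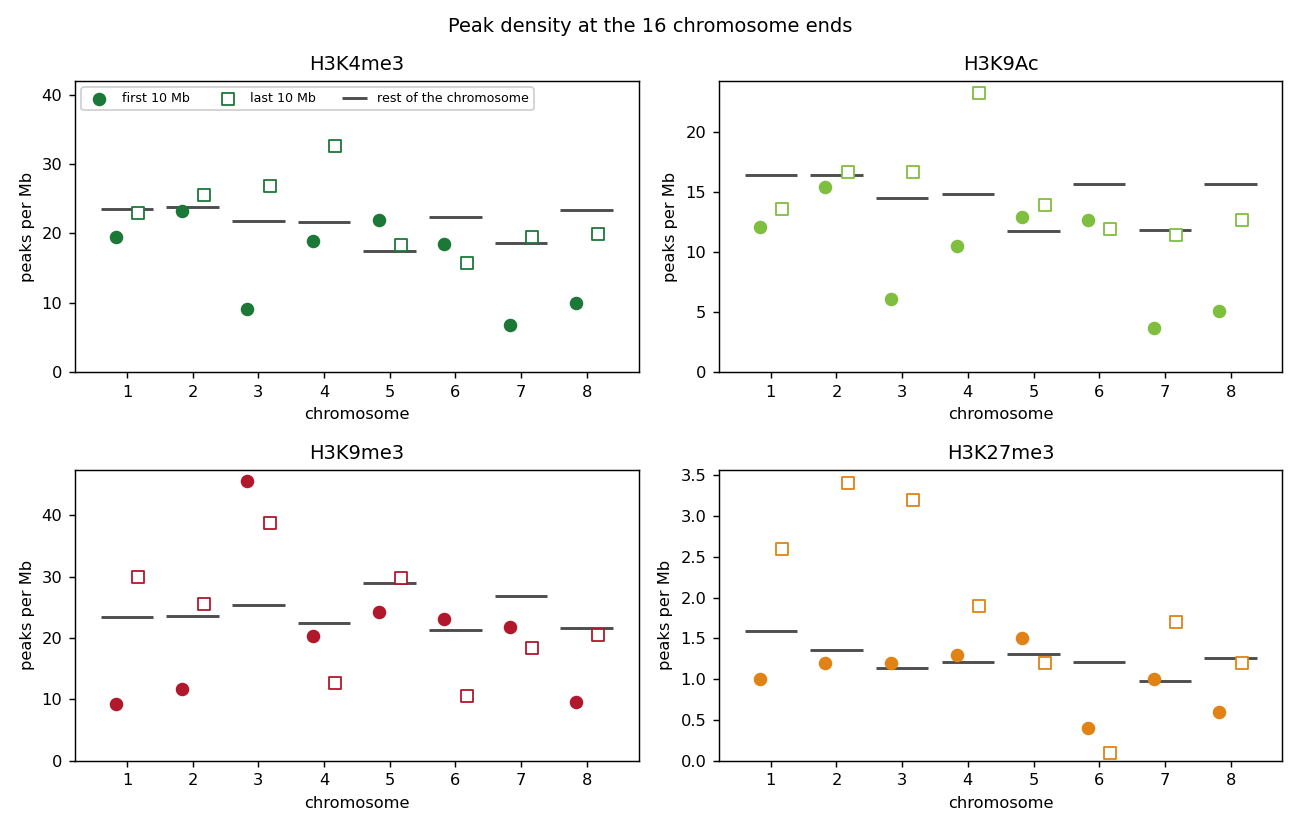
Peaks per Mb (vertical axes, from 0) in the first 10 Mb (filled circles) and the last 10 Mb (open squares) of each autosome (horizontal axes), with the rest of the same chromosome as a short horizontal line, for each of the 4 marks. The first ends of chromosomes 3, 7 and 8 lie far below these lines for both MOAs, while the first end of chromosome 3 has the highest H3K9me3 value, 45.6 peaks per Mb.

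Each end was also set beside the interior of its own chromosome, and the 323 interior windows of 10 Mb served as a background for how far any such interval departs from its chromosome. H3K4me3 was at or above 1.5 times the interior value at 1 of 16 ends (6.25%), against 8.36% of interior windows, and at or below the interior value divided by 1.5 at 3 ends (18.8%), against 17.6%. For H3K9Ac the numbers were 1 end (6.25%), against 10.2% of windows, and 3 ends (18.8%), against 19.5%. For H3K9me3 they were 2 ends (12.5%), against 12.1% of windows, and 5 ends (31.2%), against 24.1%. For H3K27me3, with few peaks per window, they were 5 ends (31.2%), against 21.4% of windows, and 4 ends (25%), against 37.2%. For the MOAs these shares are close to the background, so as a class the ends departed from their chromosomes about as often as other intervals of the same size.

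The lowest values of the MOAs were at the first ends of 3 chromosomes, although H3K9Ac was below the interior of its chromosome at 11 of 16 ends, with an interval below 1 at 9 of them. The share of interior windows below the interior value is not reported here, and windows were given no intervals. These counts therefore do not set the ends apart from other intervals of that size. At the last end of chromosome 1, for example, the H3K9Ac ratio was 0.825 (0.692 to 0.977), yet 18 of 72 interior windows had fewer peaks. The first 10 Mb of chromosome 7 had 68 H3K4me3 peaks, 0.364 times the density of its interior (0.282 to 0.462), and 37 H3K9Ac peaks. That of chromosome 3 had 91 H3K4me3 and 61 H3K9Ac peaks, 0.419 and 0.421 times the interior values. That of chromosome 8 had 99 H3K4me3 and 51 H3K9Ac peaks, but no peak of any mark lay in its first 3.02 Mb, below the threshold included. When that stretch was left out of the length, a choice made after the values were seen, H3K4me3 there was at 0.605 times the interior value (0.491 to 0.738). Whether the empty stretch is a gap in the assembly was not tested. In all, the first end had fewer H3K4me3 peaks than the last in 6 of 8 chromosomes and fewer H3K9Ac peaks in 7 of 8. Over the 8 chromosomes there were 15.99 H3K4me3 peaks per Mb at first ends and 22.7 at last ends. For H3K9me3 the first end had fewer peaks in 4 of 8 chromosomes, with 20.7 per Mb at first ends and 23.2 at last ends. H3K27me3 peaks were fewer at the first end in 6 of 8 chromosomes, with 1.02 per Mb at first ends and 1.91 at last ends (ratio 0.536, 0.405 to 0.705).

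The 10 Mb boundary did not mark a step in the MOAs. Between 9 and 10 Mb from the end there were 24.4 H3K4me3 peaks per Mb, and just outside, between 10 and 11 Mb, 24.1. Within the ends, H3K4me3 was lowest between 2 and 4 Mb, at 15.4 per Mb, against 18.9 in the outermost 2 Mb. H3K9Ac followed the same course, with 9.31 peaks per Mb between 2 and 4 Mb and 12.1 in the outermost 2 Mb. Such low values were not particular to the ends. H3K4me3 had 15.1 per Mb between 29 and 30 Mb, and H3K9Ac had 8.875 between 31 and 32 Mb. For H3K9me3 the values on both sides of the boundary were 22.1 and 14.8 per Mb. The interval from 10 to 20 Mb had 19.1 H3K9me3 peaks per Mb, fewer than the ends, so that set against it the ratio of the ends was 1.15.

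**Figure D2:**
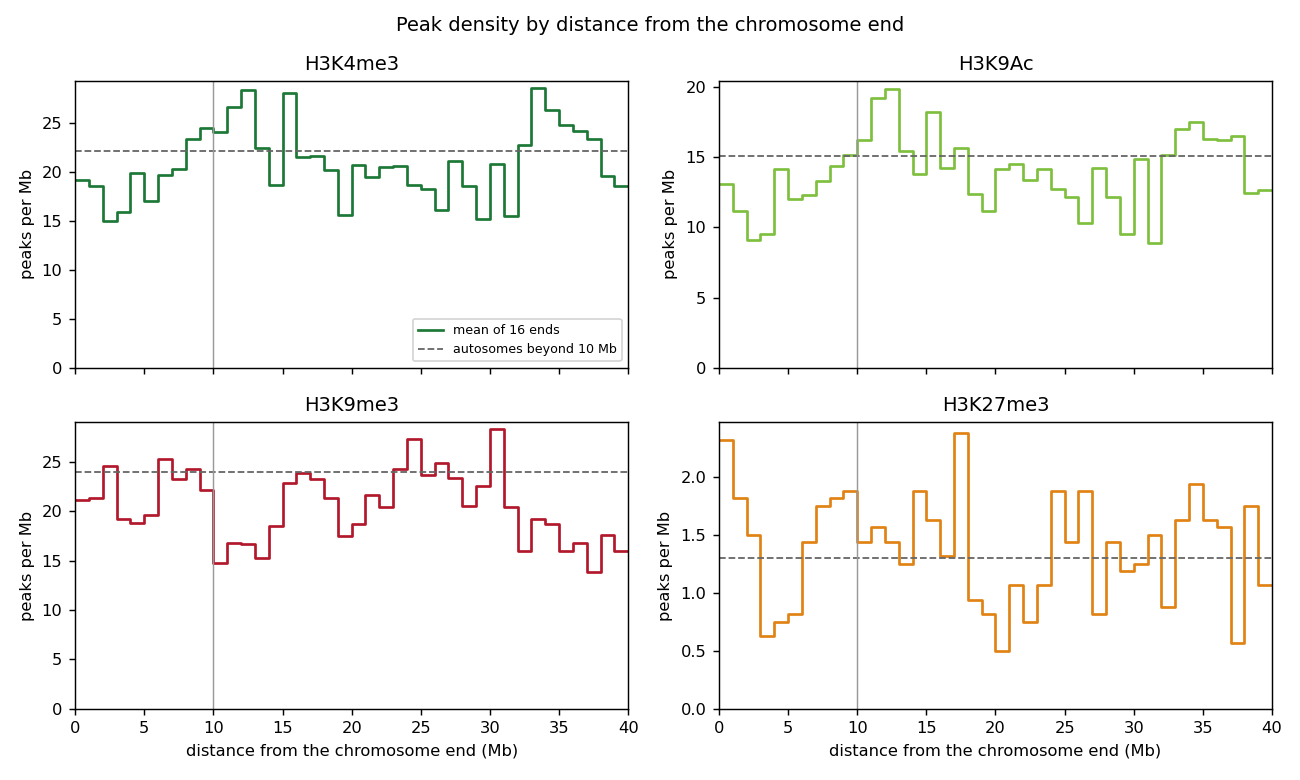
Mean peaks per Mb over the 16 ends (vertical axes) in bins of 1 Mb by distance from the chromosome end (horizontal axes, Mb), with the value of the autosomes beyond 10 Mb as a dashed line and the 10 Mb boundary as a vertical line. H3K4me3 and H3K9Ac dip between 2 and 4 Mb and reach the dashed line near 10 Mb, and H3K9me3 drops just outside the boundary. For both MOAs the bin from 31 to 32 Mb is about as low as that dip.

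Covered bases and numbers of peaks differed for H3K9me3. H3K9me3 peaks covered 5.29% of the end sequence and 5.26% of the interior, although there were fewer of them per Mb at the ends. This pooled value drew on the last ends of chromosomes 1 and 3, with 8.30% and 11.8% covered against 5.13% and 5.66% in their interiors. The median of the 16 ratios of covered bases was 0.833. H3K4me3 covered 4.67% at the ends and 5.73% in the interior, H3K9Ac 2.91% and 3.84%, and H3K27me3 0.415% and 0.302%. Widths of the MOAs were alike, with a median H3K4me3 width of 1938 bases at the ends and 1964 bases in the interior. Broad H3K4me3 peaks of 10 kb or more made up 0.647% of end peaks (20 peaks, 0.395% to 0.997%) and 1.18% of interior peaks (1.10% to 1.26%). H3K9me3 peaks had a median width of 1976 bases at the ends and 1925 in the interior. Their scores, which can be compared within 1 list, had a median of 84.2 at the ends and 76.4 in the interior. A score of 100 was reached by 39.8% of end peaks (38.2% to 41.4%) against 29.9% of interior peaks (29.6% to 30.2%). Without the last ends of chromosomes 1 and 3 the share at the ends was 36.4% (34.6% to 38.2%).

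The strongest and the widest H3K9me3 peaks were more frequent at the ends. Peaks with a score of 1000 or more, a cut chosen after the values of the ends had been seen, numbered 28 at the ends and 98 in the interior. These were 0.175 and 0.0300 per Mb, a ratio of 5.83 (3.68 to 8.95). Of the 28, 27 overlapped an H3K4me3 peak (96.4%, 81.7% to 99.9%), against 60 of the 98 in the interior (61.2%, 50.8% to 70.9%). They were unevenly spread, with 16 in the last 10 Mb of chromosome 3 and 7 in the last 10 Mb of chromosome 1. At the other 14 ends there were 5, or 0.0357 per Mb, 1.19 times the interior value (0.378 to 2.87). H3K9me3 peaks 10 kb wide or more numbered 29 at the ends, 0.181 per Mb, and 132 in the interior, 0.0405 per Mb, a ratio of 4.48 (2.89 to 6.74). These lay at 8 of the 16 ends, and without the last ends of chromosomes 1 and 3 there were still 18, 3.18 times the interior density (1.83 to 5.22). Of the 29 wide peaks, 8 lay in the last end of chromosome 1, 6 in that of chromosome 5, 4 in that of chromosome 2 and 3 at each end of chromosome 3.

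Combinations of marks were read from regions made by merging all peaks that shared a base. The ends held 6552 such regions and the interior 153098, and single-mark regions made up 70.4% and 71.2% of them. Regions with H3K9me3 alone were the largest class at the ends, 3161 of 6552 (48.2%), at 0.872 times the interior density. Regions with both MOAs and no MOR numbered 1600, which was 10 per Mb against 12.2 in the interior, a ratio of 0.822 (0.781 to 0.864). Regions with H3K4me3 alone numbered 1209, at a ratio of 0.883 (0.833 to 0.935). Among classes with over 100 regions at the ends, H3K9Ac alone had the lowest ratio, 0.622 (0.525 to 0.732), with 149 end regions. H3K4me3 with H3K27me3 stood lower, at 0.132 (0.00333 to 0.749), on 1 end region and 154 interior regions.

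Most classes that joined H3K9me3 to another mark had ratios above 1, with an exception in H3K4me3 with both MORs (3 end and 107 interior regions, a ratio of 0.572, 0.116 to 1.72). H3K4me3 with H3K9me3 occurred at 110 end regions, 0.688 per Mb against 0.381 in the interior, a ratio of 1.805 (1.47 to 2.19). Both MOAs with H3K9me3 occurred at 91 end regions, a ratio of 1.503 (1.20 to 1.86). H3K9me3 with H3K27me3 occurred at 119 end regions, a ratio of 1.601 (1.32 to 1.93). All 4 marks occurred at 8 end regions and 52 interior regions, a ratio of 3.14 (1.29 to 6.65). This ratio rested on few regions, and was 1.67 without the last end of chromosome 3, 1.36 with scores of at least 100 and 1.49 with ends of 20 Mb. Without the last ends of both chromosomes 1 and 3 it was 1.79, and its interval included 1 (0.471 to 4.87). Counted by peaks, 212 of 3514 H3K9me3 peaks at the ends (6.03%, 5.27% to 6.87%) overlapped H3K4me3, against 3.44% in the interior (3.31% to 3.57%), and 2.28% overlapped H3K9Ac, against 1.24%. The MOAs overlapped each other about as often as elsewhere: 92.4% of H3K9Ac peaks at the ends overlapped H3K4me3, against 90.02% in the interior, and 56.9% of H3K4me3 peaks overlapped H3K9Ac, against 59.0%.

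**Figure D3:**
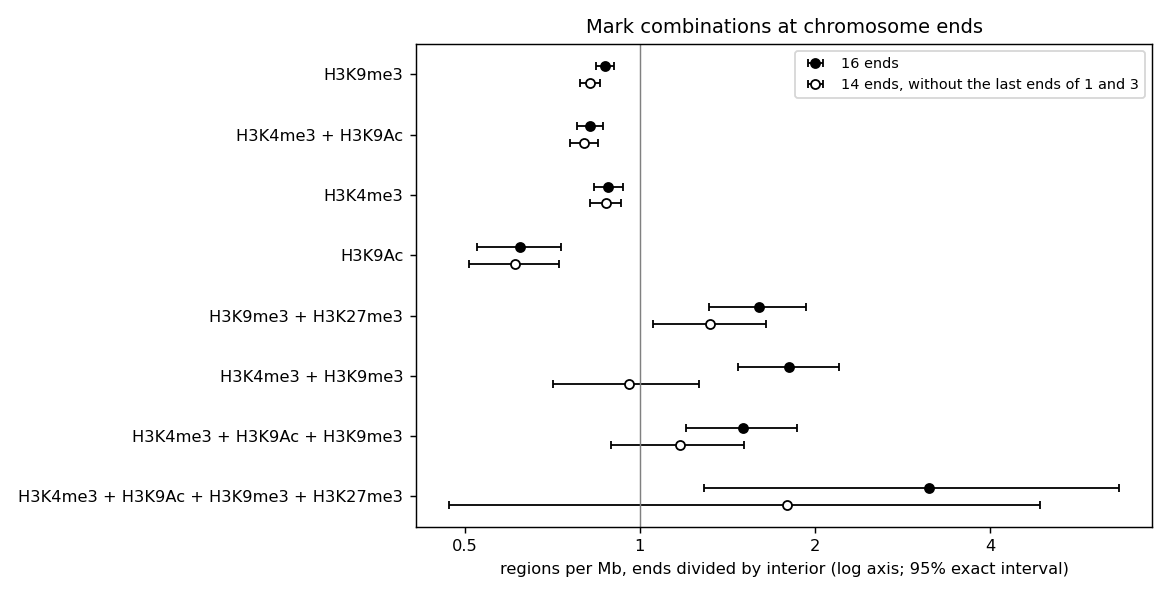
Regions per Mb at the ends divided by regions per Mb in the interior (horizontal axis, log scale) for 8 combinations of marks, with exact 95% intervals, for all 16 ends (filled) and for the 14 ends left without the last ends of chromosomes 1 and 3 (open). Classes with 1 mark or with both MOAs lie left of 1 in both sets, whereas H3K4me3 with H3K9me3 falls from 1.805 to 0.956 once those ends are left out.

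This joint marking was concentrated at 2 ends. Regions with H3K9me3 and at least 1 MOA, a class defined after the combinations had been seen, numbered 214 at the 16 ends, 1.34 per Mb against 0.813 in the interior. Of these, 60 lay in the last 10 Mb of chromosome 3 and 33 in the last 10 Mb of chromosome 1, together 43.5% (36.7% to 50.4%). The other 14 ends had from 5 to 14 each. The value in the last end of chromosome 3 was 6.70 times that of its interior (5.03 to 8.78), above 49 of 50 interior windows of that chromosome. The remaining window, from 500000001 to 510000000, held the same number, 60, so this density was not particular to the end. The last end of chromosome 1 was at 3.79 times its interior (2.59 to 5.38), above all 72 interior windows. Without these ends, which were chosen for their high values, the density at the other 14 was 1.06 times the interior value (0.878 to 1.28). Without the last end of chromosome 3 alone the ratio over the remaining ends was 1.26. Of the 16 ends, 5 (31.2%) were at or above 1.5 times their interior, against 14.9% of interior windows, and 2 (12.5%) were at or below the interior value divided by 1.5, against 30.3%.

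**Figure D4:**
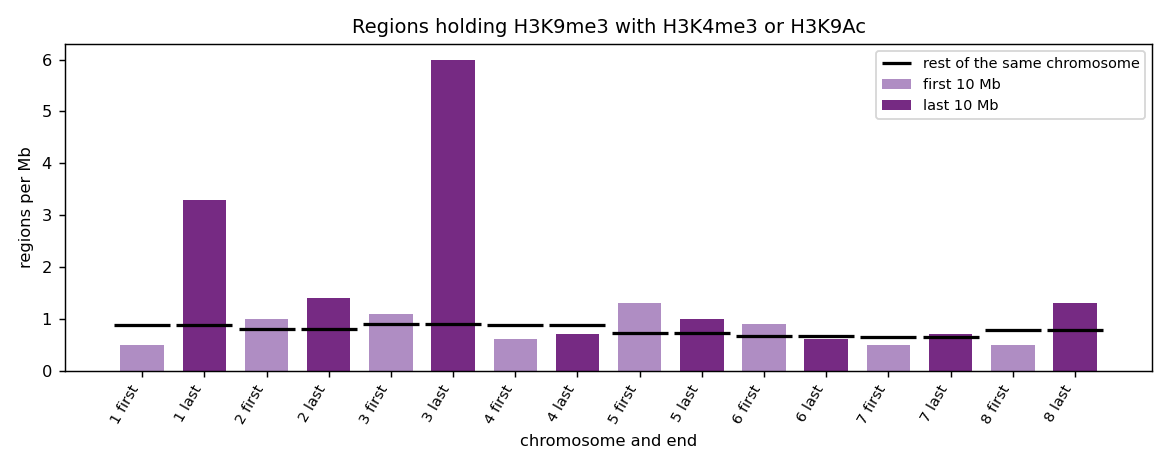
Regions per Mb that hold H3K9me3 together with H3K4me3 or H3K9Ac (vertical axis) at each of the 16 ends (horizontal axis), with the value of the rest of the same chromosome as a black line. The last ends of chromosome 3, at 6 per Mb, and chromosome 1, at 3.3 per Mb, stand above the other 14, which reach at most 1.4.

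At these 2 ends the jointly marked regions were strongly marked with H3K9me3. Their median width was 5720.5 bases on chromosome 3 and 6267 on chromosome 1, within the range of the other 14 ends (3008 to 7732). The largest of these medians, at the first end of chromosome 7, rested on 5 regions. In the last end of chromosome 3 the jointly marked regions made up 9.87% of all regions and covered 3.81% of the sequence. The median of their highest H3K9me3 scores was 532. They were spread over 9 of the 10 outermost 1 Mb bins, with 17 in the bin from 4 to 5 Mb, and neighbouring midpoints were a median of 57.9 kb apart. In the last end of chromosome 1, 18 of the 33 lay between 2 and 3 Mb from the edge, and neighbours were a median of 47.4 kb apart. H3K9me3 peaks overlapping H3K4me3 had a median score of 531 in the last end of chromosome 3 and 429 in that of chromosome 1, against 140 at the other 14 ends and 110 in the interior. The H3K4me3 peaks involved had median scores of 310 and 243 at these ends and 263 in the interior. The overlap was partial, since H3K4me3 covered a median of 35.1% of such an H3K9me3 peak on chromosome 3, 30.02% on chromosome 1 and 49.2% in the interior. When at least 50% of the H3K9me3 peak had to be covered, the share overlapping H3K4me3 at all 16 ends was 1.15 times that of the interior, and the share overlapping H3K9Ac fell to 0.858 times.

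The strongest H3K9me3 peaks of all 16 ends were of this kind. The highest score, 2606, belonged to a peak on chromosome 1 from 745967825 to 745978256 in MonDom5, 10432 bases wide and 2.07 Mb from the edge. The next, with a score of 2535, lay on chromosome 2 from 538742524 to 538752852, and the one after it, with a score of 2190, on chromosome 1 from 745297676 to 745313141. All 3 overlapped H3K4me3 and none overlapped H3K9Ac. The widest H3K9me3 peak at any end, on chromosome 5 from 298269983 to 298298046, was 28064 bases wide with a score of 975 and overlapped no other mark. In the last end of chromosome 3 the strongest jointly marked region ran from 521126741 to 521139810, with an H3K9me3 score of 1819.

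The first end of chromosome 3 had the opposite composition. It held 456 H3K9me3 peaks, 45.6 per Mb against 25.3 in its interior, and in 434 of its regions H3K9me3 was alone. Of the 50 interior windows of that chromosome, 4 had more H3K9me3 peaks. The one from 120000001 to 130000000 had 78.1 per Mb, with 1 H3K4me3 peak and no H3K9Ac peak. This composition was thus not particular to the end. From 5689546 to 10206565, a stretch of 4.52 Mb that runs past the boundary, there was no MOA peak at all, while 287 H3K9me3 peaks lay in it, 63.5 per Mb against 25.3 in the interior of that chromosome. They covered 13.5% of the stretch. Another stretch of this kind lay near the last end of chromosome 5, from 295272161 to 298483801, with 176 H3K9me3 peaks (54.8 per Mb). One more, of 1.74 Mb near the last end of chromosome 8, had 83 (47.7 per Mb). Of 13 stretches of 1 Mb or more without an MOA, others had few H3K9me3 peaks, such as 3 stretches in the first end of chromosome 8 with 3.31 to 5.59 per Mb. Stretches of at least 300 kb without an MOA took up 32.6% of the end sequence and 33.3% of the interior, so ends and interior had about the same share of sequence without these marks.

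**Figure D5:**
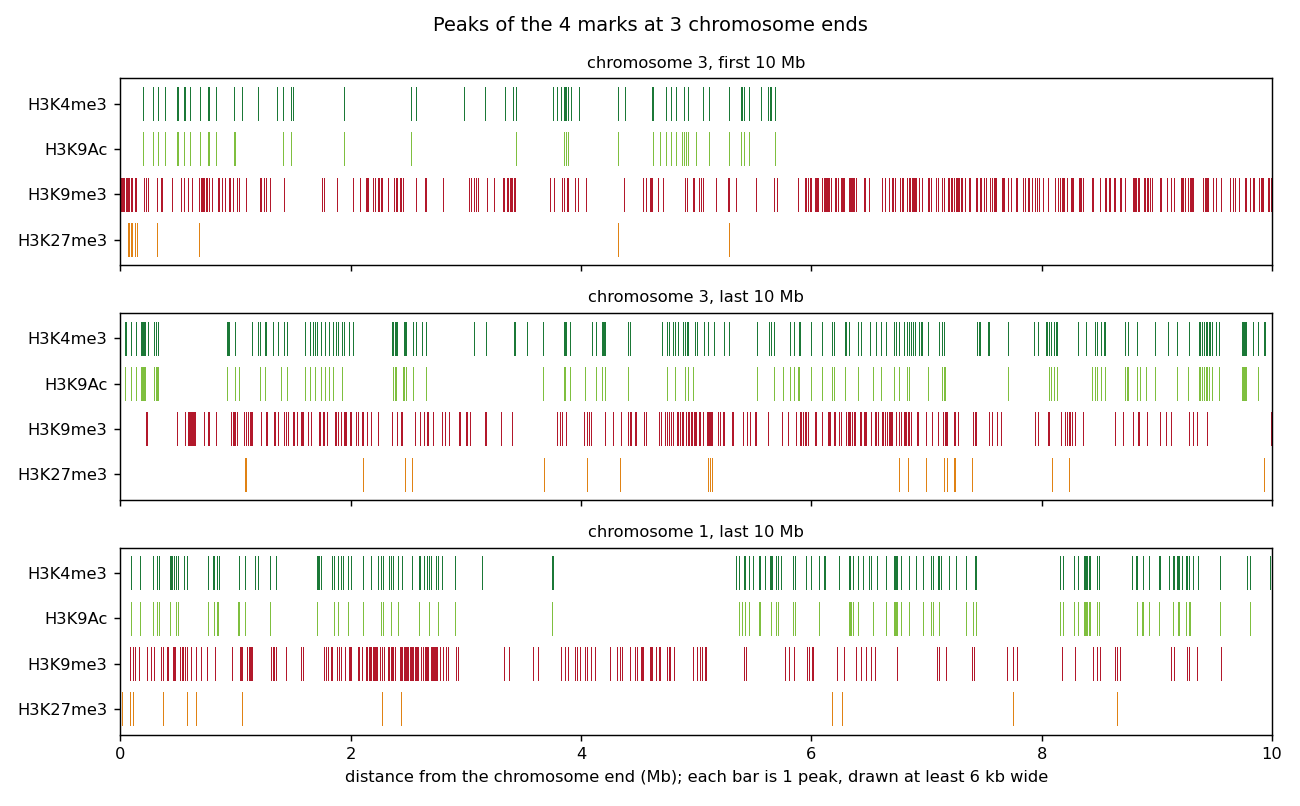
Position of every peak of the 4 marks (rows, 1 bar per peak, drawn at least 6 kb wide) by distance from the chromosome end (horizontal axis, Mb) at 3 ends. In the first 10 Mb of chromosome 3 a stretch of 4.52 Mb has no MOA while H3K9me3 peaks go on, whereas in the last 10 Mb of chromosomes 3 and 1 peaks of H3K9me3 and H3K4me3 are interleaved.

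H3K27me3 was sparse at every end, and its excess in covered bases, 1.37 times the interior, came from few peaks. The last ends of chromosomes 2, 3 and 1 had 34, 32 and 26 peaks, 2.51, 2.80 and 1.64 times the values of their interiors, while both ends of chromosome 6 together had 5. Of the 235 end peaks, 134 (57.0%, 50.4% to 63.4%) overlapped H3K9me3, against 41.4% in the interior (39.9% to 42.9%), and without the last ends of chromosomes 1 and 3 the share was 53.1%. Overlap with H3K4me3 was rarer at the ends, 9 of 235 peaks (3.83%, 1.77% to 7.15%) against 8.80% in the interior (7.97% to 9.69%). That ratio of shares, 0.435, was 0.797 when every deposited peak was counted. The highest score, 475, belonged to a peak on chromosome 3 from 148525 to 156617 that overlapped H3K9me3. The next, with a score of 349, lay on chromosome 2 from 539908569 to 539915958, inside one of the regions with all 4 marks. The widest, 15881 bases, lay on chromosome 7 from 253588 to 269468 with a score of 87.8 and overlapped H3K9me3.

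The 8 end regions with all 4 marks lay at 3 ends, 4 in the last end of chromosome 3 and 2 each in the first end of chromosome 3 and the last end of chromosome 2. The one with the highest H3K9me3 score, 1188, ran from 694552 to 701902 on chromosome 3 and had scores of 422 for H3K4me3, 424 for H3K9Ac and 74.7 for H3K27me3. In the last end of chromosome 3 the highest of the 4 H3K9me3 scores, 452, was in the region from 521175833 to 521184830. The region on chromosome 2 from 539904480 to 539918929, 14450 bases wide, combined the strongest H3K4me3 score of the 8, 3100, with an H3K9Ac score of 2158, an H3K9me3 score of 165 and an H3K27me3 score of 349. A region of this kind can join marks that lie side by side, since merging needs only a chain of shared bases.

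At the ends, the 3 highest-scoring peaks of each MOA overlapped the other MOA and no MOR. The H3K4me3 peak with the highest score, 3233, lay on chromosome 2 from 7936169 to 7939892, and the next, with scores of 3221 and 3219, on chromosome 2 from 541177857 to 541181902 and on chromosome 4 from 434558376 to 434563087. All 3 overlapped H3K9Ac and neither MOR. The widest H3K4me3 peak at any end ran over 23588 bases on chromosome 2, from 4215000 to 4238587. The H3K9Ac peak with the highest score, 3147, lay on chromosome 2 from 7231719 to 7241947 and overlapped H3K4me3 alone. Many peaks of both lists share a score of 3100, so their order near that value carries little. Some peaks with a score of 3100 did overlap an MOR. One was the widest H3K9Ac peak, 15448 bases on chromosome 7 from 9966592 to 9982039, which overlapped both H3K4me3 and H3K9me3. It lay at the inner boundary of a first end that had only 37 H3K9Ac peaks.

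Genes could be placed only through the list of candidate-imprinted genes, for which the study gave the position of a 3′-UTR region. These genes were selected by the study from the same libraries for concurrent marking by both MOAs and H3K9me3, so their marking is a description and no result. Of the list, 4 genes lay in a terminal 10 Mb. TWIST1, a transcription factor of mesenchymal cells, lay 8.36 Mb from the last end of chromosome 8. Over its region lay H3K4me3 from 304139027 to 304152531 (score 3100), H3K9Ac from 304139063 to 304144264 (score 3100) and H3K9me3 from 304139722 to 304142385 (score 223). NXNL2, a thioredoxin-like protein of photoreceptors, lay 2.29 Mb from the first end of chromosome 6, and 18.3 kb away an H3K4me3 peak (score 683) and an H3K9Ac peak (score 88.3) adjoined an H3K9me3 peak from 2314794 to 2317448 (score 425).

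At PPIH, a cyclophilin of the spliceosome 5.99 Mb from the last end of chromosome 4, the nearest H3K4me3 peak ran from 429125649 to 429129372 (score 2567) and the nearest H3K9Ac peak from 429125920 to 429129560 (score 899). The H3K9me3 peak there had a score of 30.5 and the nearest H3K27me3 peak one of 38.1, so neither passed the threshold, although a further H3K27me3 peak 12.6 kb away did (score 112). At MORC2, an ATPase that takes part in H3K9me3 silencing, in the last end of chromosome 3 that was rich in joint marking, 4 H3K9me3 peaks lay within 30 kb of the region, with scores from 36.5, which is below the threshold, to 103. The nearest H3K4me3 peak was 39.2 kb away, with a score of 516, and the nearest region with H3K9me3 and both MOAs was 56292 bases away. CSTB, an inhibitor of cathepsins, lay just outside the boundary, 10.1 Mb from the first end of chromosome 4, where an H3K4me3 peak at a score of 3100 covered its region and an H3K9me3 peak with a score of 258 lay 321 bases from it.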

How the data were processed

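After quality filtering the authors aligned reads to MonDom5 with Bowtie in Galaxy, where the best alignment per read was reported, and ran MACS on every library with the input as control. The submitters' processing notes name CASAVA 1.7, Bowtie 1.1.2 and MACS 1.0.1. The deposited score of a peak is the MACS p-value as minus 10 log10 p, so that 50 stands for 1e-05. At that threshold the lists held 87583 H3K9me3 and 6668 H3K27me3 peaks, which are not the numbers that the paper reports at that p. The reason was not tested. Scores depend on depth and peak width and were compared only within a list. The lists hold no read counts, so the depth behind a peak is unknown. Reporting 1 alignment per read can change where peaks are called in duplicated sequence.

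Python 3.11.15 with numpy 2.4.6 and scipy 1.17.1 was used to read the lists. Positions were set to count from 1, and 2 H3K9me3 starts below 0 were moved to the first base. A shared base was enough for overlap. Overlap and merging were tested on simulated peaks and gave the same numbers as bedtools 2.31.1 for 12 ordered pairs of marks. Windows of 10 Mb were laid from the lower edge of each interior. Intervals are exact 95% intervals (conditional binomial for ratios of peaks per Mb, Clopper-Pearson for shares). Alternatives were tried for the threshold, merging, the length of the end, the interior and the overlap. Named peaks were the 3 with the highest score and the widest of each mark, with outermost peaks and regions with all 4 marks. Named genes were the candidates of the study in or next to an end. The members, classes and lists were chosen with earlier results of these data known. Sequences were not analysed here.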

Additional observations from a re-analysis of the deposited data

How the results depend on the processing

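No paired analysis was possible because each antibody had a single library. Of 206 values recomputed for 28 results under other choices, 136 moved by less than counting error or 1.5 times, 65 moved by more and 5 moved to the other side of 1 from a value whose interval excluded 1, and beyond the constructions named here the cause was not tested. Ratios below are of ends to interior. With a score of at least 100, the H3K9me3 ratio of peaks per Mb turned to 1.22, its covered bases moved to 1.32 and regions with H3K9me3 alone turned to 1.15, while H3K27me3 moved to 1.43 in peaks and 1.82 in covered bases. Regions then stood at 0.765 for H3K9Ac alone, 2.36 for H3K9me3 with H3K27me3, 2.88 for H3K4me3 with H3K9me3, 1.995 for both MOAs with H3K9me3 and 2.35 for H3K9me3 with any MOA, and the share of H3K9Ac overlapping H3K4me3 was 1.01 times the interior share. With every deposited peak, H3K9me3 stood at 0.844 in peaks, 0.923 in covered bases and 0.807 in regions alone, and H3K9me3 with H3K27me3 at 1.30. Against the interval from 10 to 20 Mb, H3K9me3 turned to 1.15 in peaks and 1.29 in covered bases, with 10 of 16 ends above.

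With ends of 5 Mb, peaks per Mb stood at 0.803 for H3K4me3, 0.758 for H3K9Ac and 0.876 for H3K9me3, covered bases at 0.755 and 0.676 for the MOAs, and shares at 2.04 for H3K9me3 with H3K4me3, 2.18 for H3K9me3 with H3K27me3 and 1.59 for H3K27me3 with H3K9me3. Regions stood at 0.818 for H3K9me3 alone, 0.759 for both MOAs, 0.776 for H3K4me3 alone, 0.487 for H3K9Ac alone and 2.28 for H3K4me3 with H3K9me3. With ends of 20 Mb the MOAs moved the other way, to 0.954 for H3K4me3 and 0.933 for H3K9Ac in peaks, and to 0.913 and 0.878 in covered bases. H3K9me3 did not, and fell to 0.846 in peaks and 0.880 in covered bases. The share of H3K9Ac overlapping H3K4me3 was 1.01 times the interior share. Regions then stood at 0.813 for H3K9me3 alone, 0.926 for both MOAs, 0.960 for H3K4me3 alone, 0.836 for H3K9Ac alone, 1.43 for H3K4me3 with H3K9me3 and 1.36 for H3K9me3 with any MOA. The median of the 16 ratios was 0.925 for H3K4me3 and 0.869 for H3K9me3 in peaks, and 0.833 for H3K9me3 and 1.08 for H3K27me3 in covered bases. When at least 50% of a peak had to be covered, H3K9me3 with H3K4me3 moved to 1.15, H3K9me3 with H3K9Ac turned to 0.858 and H3K27me3 with H3K4me3 was 0, with no such peak at the ends.

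Further alternatives were chosen after seeing the data. Leaving out each end in turn gave 0.836 to 0.914 for H3K4me3, 0.776 to 0.863 for H3K9Ac and 0.849 to 0.9501 for H3K9me3 peaks, 0.802 to 0.904 for H3K9me3 alone, and lowest values of 0.775 for both MOAs, 1.28 for H3K4me3 with H3K9me3 and 1.26 for H3K9me3 with any MOA. Without the last ends of chromosomes 1 and 3, chosen for their values, peaks stood at 0.840 for H3K4me3, 0.841 for H3K9me3 and 0.971 for H3K27me3, the share of H3K9me3 with H3K4me3 at 1.22, and regions at 0.821 for H3K9me3 alone, 1.17 for both MOAs with H3K9me3 and 1.06 for H3K9me3 with any MOA, while H3K4me3 with H3K9me3 turned to 0.956. With 1 library per mark and no read counts, differences between marks in depth or antibody cannot be told apart from differences in chromatin.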

Other observations

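At 14 of 16 ends a peak of some mark lay within 100 kb of the edge, the exceptions being the first ends of chromosomes 2 and 8. The last edges are by construction the end of a peak, and how often other points lie that near a peak was not counted. This number therefore does not set the edges apart from other sequence. The median distance from the edge to the outermost peak was 5.72 kb for H3K9me3, with a peak within 100 kb at 13 ends. For H3K4me3 that distance had a median of 67.6 kb, with a peak within 100 kb at 9 ends, and for H3K27me3 it was 513 kb. These distances do not rank the marks. The edge was itself the end of an H3K9me3 peak at the last ends of chromosomes 1, 5, 7 and 8. At those of chromosomes 3, 4 and 6 it was the end of an H3K4me3 peak. At the first ends of chromosomes 3 and 7 the H3K9me3 list opened with wide peaks that began at the first base once starts below 0 were set to it, 18137 bases with a score of 322 and 10201 bases with a score of 282. The first end of chromosome 1 differed, since there the outermost peak was one of H3K4me3 from 4613 to 10809 (score 2344), which overlapped an H3K9Ac peak, and the outermost H3K9me3 peak was 0.444 Mb from the edge.

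Of the 10 outermost 1 Mb bins, the first held most H3K27me3 peaks, with 37 peaks or 2.31 per Mb over the 16 ends. Between 3 and 4 Mb there were 0.625 per Mb. Outside the ends, the bin from 17 to 18 Mb held 38 peaks, 20 of them near 1 end. A pooled count of this size was thus not particular to the edge. In the outermost Mb the ends ranged from 0 to 10 peaks and 5 of 16 had none.

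Stretches of at least 300 kb without a peak of any mark took up 5.86% of the end sequence and 3.20% of the interior. Of these, the empty start of chromosome 8 was the longest at an end (3.02 Mb), and the next was 629 kb long, also at the first end of chromosome 8. The empty start alone made up most of the difference in share. Counted as stretches there were 17 at the ends and 224 in the interior, and the interval of their ratio per Mb of 1.55 included 1 (0.886 to 2.53).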
